A study of Mus musculus with 2 samples.

Results

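The miR-130 and miR-301 family of the mouse was followed at 4 annotated genes, Mir130a, Mir130b, Mir301 and Mir301b, out of 1973 miRNA genes in the deposited tables. The genes were chosen by a shared seed, the bases at positions 2 to 8 of a mature miRNA, and were selected on these tables with their read counts already known. Their levels are therefore a description, with no test. Both libraries are small RNA of the forebrain of B6NCrl mouse embryos at embryonic day 14.5, when the cortex is producing neurons. They are numbered as biological replicates 1 and 2, and each is described as coming from 1 forebrain, with different collection days. The labels also give the sex as pooled and 1 donor identifier for both, and part of their spread may be technical. Neither library carries a treatment or mutation, and no other tissue or age is labelled, so no comparison of conditions was possible.

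A miRNA is cut from a hairpin in a longer transcript, and the strand that is kept guides a repressor complex to messenger RNAs that pair with its seed. Members of a seed family can pair with many of the same messengers, so their levels are read both gene by gene and as a sum. In this family the kept strand usually comes from the 3′ side of the hairpin. In human cells, miR-130a is known for repressing antiangiogenic homeobox genes in the endothelium.

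The hairpins are shown because each gene count belongs to a hairpin. The sequences come from RefSeq on GRCm38.p6, run 5′ to 3′, and carry the shared seed in capitals.
Mir130a: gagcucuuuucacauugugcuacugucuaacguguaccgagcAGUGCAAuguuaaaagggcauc
Mir130b: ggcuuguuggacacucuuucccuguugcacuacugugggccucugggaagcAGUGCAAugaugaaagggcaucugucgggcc
Mir301: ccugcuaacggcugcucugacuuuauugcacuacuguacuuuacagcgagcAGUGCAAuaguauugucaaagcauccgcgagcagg
Mir301b: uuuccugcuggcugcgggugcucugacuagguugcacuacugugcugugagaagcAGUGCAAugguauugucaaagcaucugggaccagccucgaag

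Each of the 4 hairpins holds the heptamer 1 time, on its 3′ side, and all 4 are identical in RefSeq and GENCODE M21. Predicted folds with the lowest free energy ran from -39.1 kcal/mol for Mir301b, through -37 for Mir301 and -30.1 for Mir130b, to -22.1 for Mir130a, whose hairpin is the shortest of the 4 at 64 nt. In every fold all 7 seed bases were paired. The longest hairpin is that of Mir301b, at 97 nt.

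No mature 3′ strand of Mir301b was among the sequences used, so its seed was located in its hairpin only. The mature 3′ strands of the other 3 members, and the strands of 3 further genes with the same seed, show where these differ from each other.
miR-130a-3p: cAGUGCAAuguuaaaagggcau
miR-130b-3p: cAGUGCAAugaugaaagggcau
miR-301a-3p: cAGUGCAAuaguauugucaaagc
miR-130c: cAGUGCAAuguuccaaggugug
miR-6389: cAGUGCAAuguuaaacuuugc
miR-6341: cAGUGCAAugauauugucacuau

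miR-130a-3p and miR-130b-3p were identical at 20 of 22 positions, or 90.9%, and differed by U11A and A13G, written from miR-130a to miR-130b with positions counted from the 5′ end. Against miR-301a-3p, miR-130a-3p was identical at 12 of 22 positions and miR-130b-3p at 11, with the first 9 bases shared by both pairs. So the miR-130 strands resemble each other over their whole length, whereas miR-301a resembles them at the seed end. No member hairpin shared a run of 20 nt or more with another annotated miRNA gene. The longest shared run was 17 nt, between Mir130a and Mir6389, followed by 16 nt between Mir301 and Mir301b and 16 nt between Mir130b and Mir6368. This bears on the values, because reads that matched several places were given to no gene. Such reads made up 42.7% ± 0.822 of a library (SD, n = 2), and no member shares a run of 20 nt, whereas 88 of the 399 genes with 10 or more counts in both libraries do. Only annotated miRNA hairpins were compared, so reads of a member that fit elsewhere in the genome could also be missing.

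The members lie at 3 places in the genome (mm10, GENCODE M21). Mir130a (ENSMUSG00000065484.1) lies at chr2:84741115-84741178 on the minus strand, in no annotated host gene, 990 bases from Gm19426 and 2459 bases from Ypel4. Mir301 (ENSMUSG00000065589.1) lies at chr11:87113004-87113089 on the plus strand, inside an intron of Ska2, which encodes a subunit of the complex that ties kinetochores to spindle microtubules. Mir130b (ENSMUSG00000065572.1) at chr16:17124061-17124142 and Mir301b (ENSMUSG00000076288.1) at chr16:17124400-17124496 lie 257 bases apart on the minus strand, both in an intron of 2610318N02Rik. Host transcripts are too long for these libraries and have no value here.

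The libraries held 7080317 counts on the strand of a miRNA gene in replicate 1 and 7946585 in replicate 2, or 38.3% ± 0.308 of all reads (SD, n = 2). Levels are given as CPM, the count per 1000000 of these counts. A single count equals 0.141 CPM for replicate 1 and 0.126 for replicate 2. Of 11 neural miRNA genes analysed, 10 reached 10 or more counts in each library, the minimum for a gene to be called detected, led by Mir137 with 56322 and 57802 counts in replicates 1 and 2, although 7 of the 11 share hairpin sequence and may lack part of their reads. The hepatocyte miRNA Mir122 had 73 and 81 counts, and Mir206 of striated muscle 136 and 108. The other 3 striated muscle genes analysed had no count, but all 3 share hairpin sequence, so their zeros set no limit. In bulk tissue, fewer cells of a type and less RNA per cell cannot be told apart.

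By read count, the family was abundant and was carried by Mir130a, with the other members far below it. Each count covers both strands of a hairpin. How closely the counts of different genes follow their amounts of RNA was not tested. Together the 4 genes held 311423 counts in replicate 1 and 284075 in replicate 2. These were 4.40% of all miRNA counts in replicate 1 (95% Clopper-Pearson interval 4.38 to 4.41) and 3.57% in replicate 2 (3.56 to 3.59), or 3.99% ± 0.582 (SD, n = 2). The intervals given throughout hold the counting error of reads alone and leave out other variation between libraries. PCR copies of a molecule could not be told from other reads, so the intervals may be too narrow. All 4 members were detected, as were 399 of the 1973 genes. Genes that share sequence with another miRNA hairpin may lack part of their reads, and no member is among them. The members' share of miRNA counts and their places among all genes may therefore be too high.

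Mir130a had 230227 counts in replicate 1 and 215166 in replicate 2, which are 32516 and 27077 CPM. Its mean of 29797 ± 3847 CPM (SD, n = 2) put it in place 7 of all 1973 genes, place 6 in replicate 1 and place 7 in replicate 2. It was the only member among the 10 most abundant genes in either library.

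Mir130b had 65119 and 56090 counts in replicates 1 and 2, which are 9197 and 7058 CPM. With a mean of 8128 ± 1512 CPM (SD, n = 2) it stood in place 20, and in places 20 and 24 of the single libraries. Its mature 3′ strand is nearly that of Mir130a, but its gene count was lower by a factor of 3.54 in replicate 1 and 3.84 in replicate 2. The counts do not separate the 5′ and 3′ strands, so the 3′ strands themselves were not compared.

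Mir301, the gene in the Ska2 intron, had 15027 and 11968 counts in replicates 1 and 2. Its 2122 and 1506 CPM gave a mean of 1814 ± 436 CPM (SD, n = 2) and place 70, with place 64 in replicate 1 and place 74 in replicate 2. Mir301b had 1050 and 851 counts, or 148 and 107 CPM. Its mean of 128 ± 29.1 CPM put it in place 179, and even this lowest member was well clear of the most that 0 counts would allow, 0.424 CPM for replicate 1 and 0.378 for replicate 2.

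**Figure D1:**
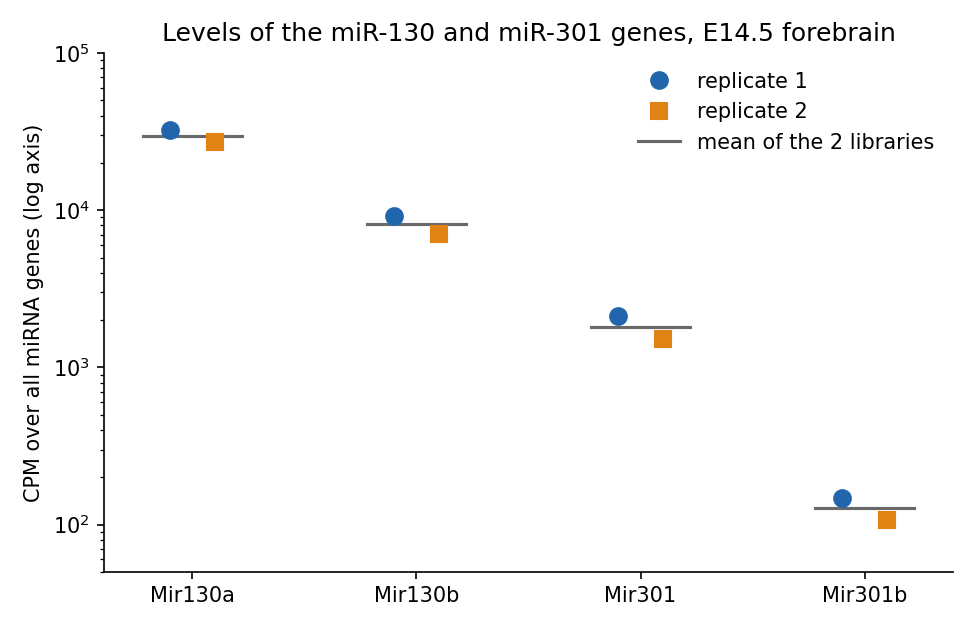
Level of each member in replicate 1 (circles) and replicate 2 (squares), in CPM over all miRNA genes on a log axis, with a line at the mean of the 2 libraries. The members keep the order Mir130a, Mir130b, Mir301, Mir301b in both libraries, from 32516 and 27077 CPM down to 148 and 107 CPM. Every member is higher in replicate 1, as are 248 of the 399 detected genes.

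The order of the members was the same in both libraries, and no neighbours in it overlapped. The lowest value of Mir130a, 27077 CPM, lay above the highest of Mir130b, 9197 CPM. Likewise, the lowest of Mir130b, 7058 CPM, lay above the highest of Mir301, 2122 CPM, and the lowest of Mir301, 1506 CPM, above the highest of Mir301b, 148 CPM. A small RNA read covers a whole mature strand, so CPM was not divided by length. Divided by hairpin length, the means became 465570 CPM per kb for Mir130a, 99119 for Mir130b, 21095 for Mir301 and 1316 for Mir301b, in the same order.

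As shares of the family sum, Mir130a made up 73.9% in replicate 1 and 75.7% in replicate 2. Mir130b made up 20.9% and 19.7%, Mir301 4.83% and 4.21%, and Mir301b 0.337% and 0.300%. The miR-130 genes together made up 94.8% of the sum in replicate 1 and 95.5% in replicate 2. Of all miRNA counts they held 4.17% and 3.41%, and the miR-301 genes 0.227% and 0.161%. The shares of the family sum do not depend on how the libraries are scaled.

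Other genes with the same seed added nothing that could be counted. Mir130c, Mir6389 and Mir6341 had 0 counts in both libraries, which sets the same limits on their levels as above, and none of their hairpins shares a run of 20 nt with another miRNA gene. miR-721 also has this seed, and its gene was not analysed here. The miR-19 strands, made from the proliferation-linked miR-17 cluster and its X-linked copy, carry the last 6 bases of the seed, GUGCAA, 1 base nearer to their 5′ end. Their counts were low, at 285 and 256 in replicates 1 and 2 for Mir19a, 79 and 68 for Mir19b-1, and 18 and 14 for Mir19b-2. Mir19b-1 and Mir19b-2 share hairpin sequence, so their values leave out reads that fit both.

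The members occupied very different places among the detected genes. Next to Mir130a stood Mir17, of the miR-17 cluster, with 35272 and 28172 CPM in replicates 1 and 2, and Mir100 with 31530 and 37285 CPM. Both ranges overlapped that of Mir130a. Within each library Mir17 stood above Mir130a, whereas Mir100 stood below Mir130a in replicate 1 and above it in replicate 2. Below it came Mir99b at 23438 and 23584 CPM and Mir487b, of the imprinted Dlk1-Dio3 region, at 20611 and 25770 CPM, and neither reached the lower value of Mir130a. Mir487b shares hairpin sequence with another gene, so its value may be too low.

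The neighbours of Mir130b were less distinct. Mir15a had 9485 and 6432 CPM in replicates 1 and 2, Mir106b, a copy of the miR-17 group, 7506 and 7903 CPM, and Mir181a-1 8326 and 9392 CPM. All 3 overlapped with Mir130b, whereas Mir322 at 9315 and 9425 CPM lay just above its higher value. Around Mir301 stood Mir361, Mir125b-2, the neuron-associated Mir153 and Mir1983, with means from 1575 to 1899 CPM, and around Mir301b stood Mir329, Mir503, Mir670 and Mir1264, with means from 118 to 134 CPM. All 8 overlapped with their member, so places 70 and 179 are approximate.

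**Figure D2:**
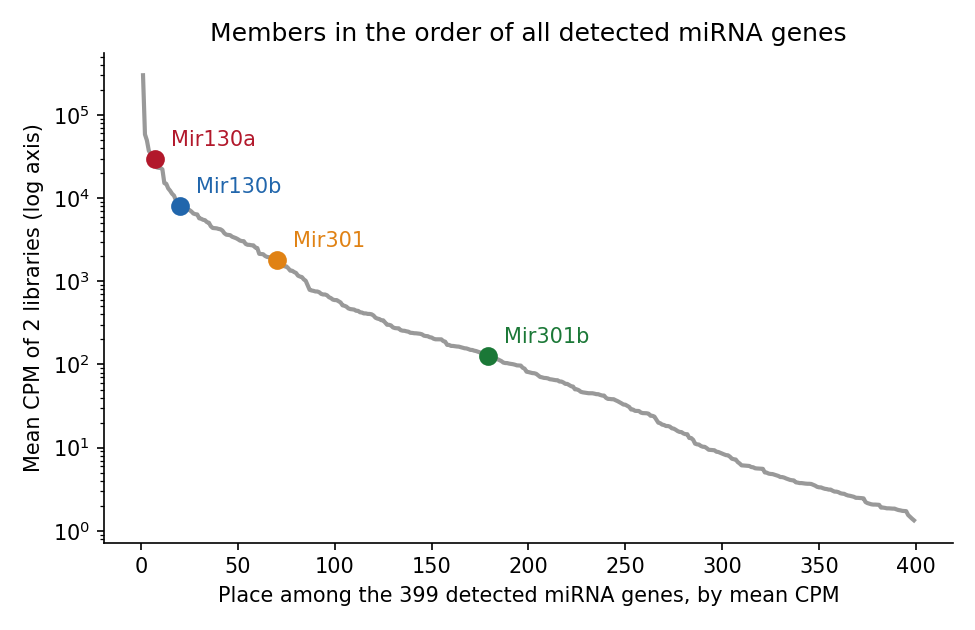
Mean CPM of the 2 libraries on a log axis for the 399 detected miRNA genes, ordered from the highest, with the members marked. Mir130a is in place 7 and Mir130b in place 20, on the steep part of the curve, with Mir301 in place 70 and Mir301b in place 179.

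Mir130b and Mir301b lie in 1 intron on 1 strand, yet their levels differed widely. Mir130b had 62.0 counts for each count of Mir301b in replicate 1 (95% counting interval 58.3 to 66.0) and 65.9 in replicate 2 (61.6 to 70.6), a mean of 64.0 ± 2.75 (SD, n = 2). The intervals overlapped, and whether this ratio differed between the libraries was not tested. On the log2 scale the mean levels lay 5.99 units apart. Over 113 pairs of neighbouring detected genes, on 1 strand and with a gap of up to 10 kb, the median difference was 3.14 units, with quartiles at 1.48 and 5.53, and the Mir130b pair had the 26th largest. Among the 68 pairs in which neither hairpin shares sequence the median was 2.45 units, and the pair was 11th. Differences of this size between neighbours were thus present elsewhere in these libraries, and the widest pair in which neither hairpin shares sequence was that of Mir449b and Mir449a, at 10.49 units.

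**Figure D3:**
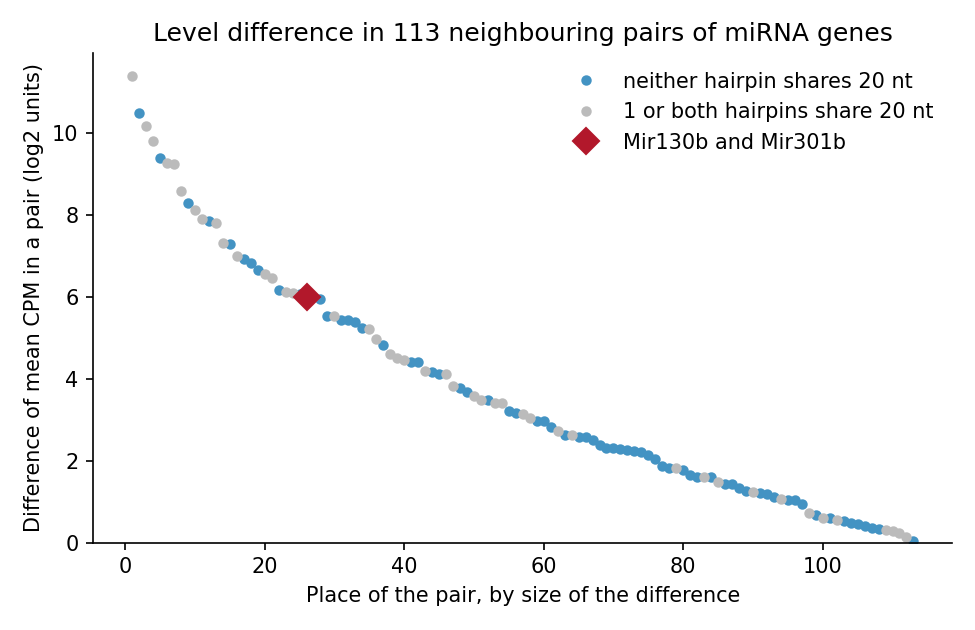
Absolute difference of the mean CPM of 2 neighbouring miRNA genes, in log2 units, for 113 pairs ordered by size. Grey points are pairs in which 1 or both hairpins share 20 nt with another gene, blue points the other 68, and the red diamond is Mir130b with Mir301b at 5.99 units, in place 26.

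Other ratios within the family differed in how well they held between libraries. The ratio of Mir301 to Mir301b, which lie on different chromosomes, was 14.3 in replicate 1 (13.4 to 15.2) and 14.1 in replicate 2 (13.1 to 15.1). That of Mir130a to Mir130b was 3.54 in replicate 1 (3.50 to 3.57) and 3.84 in replicate 2 (3.80 to 3.87), and that of Mir130b to Mir301 was 4.33 (4.26 to 4.41) and 4.69 (4.59 to 4.78). The last pair of ratios differed by more than counting error, as did those of Mir130a to Mir130b. Of the 6 ratios among the members, that of Mir130a to Mir301 moved most on the log2 scale, with 15.3 counts of Mir130a for each count of Mir301 in replicate 1 and 18.0 in replicate 2.

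All 4 members were higher in replicate 1, as were 248 of the 399 detected genes, or 62.2%. The CPM ratio, replicate 1 over replicate 2, was 1.201 for Mir130a (95% counting interval 1.19 to 1.21), 1.30 for Mir130b (1.29 to 1.32), 1.41 for Mir301 (1.38 to 1.44) and 1.38 for Mir301b (1.26 to 1.52). The family sum had a ratio of 1.23 (1.22 to 1.24). With 1 library on each side, these ratios compare the libraries and nothing else, and no test applies.

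The members had a median ratio of 1.34, against a median of 1.06 with quartiles at 0.914 and 1.23 over the 399 detected genes. A ratio of 1.2 or more toward replicate 1 was found for 4 of 4 members and for 118 of the detected genes, or 29.6%. Mir130a sat at the edge of that limit, with 70.4% of the detected genes at a lower ratio. The corresponding shares were 81.2% for Mir130b, 88.7% for Mir301b and 89.7% for Mir301. Among the 192 genes at a mean of 100 CPM or more, 48 passed 1.2, or 25%. No member reached 1.5, which 24 of the 399 genes did. The members are not independent of each other, since 2 of them share a host intron. The seed relatives with counts had ratios of 1.25 for Mir19a, 1.30 for Mir19b-1 and 1.44 for Mir19b-2, the last on 18 and 14 counts.

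**Figure D4:**
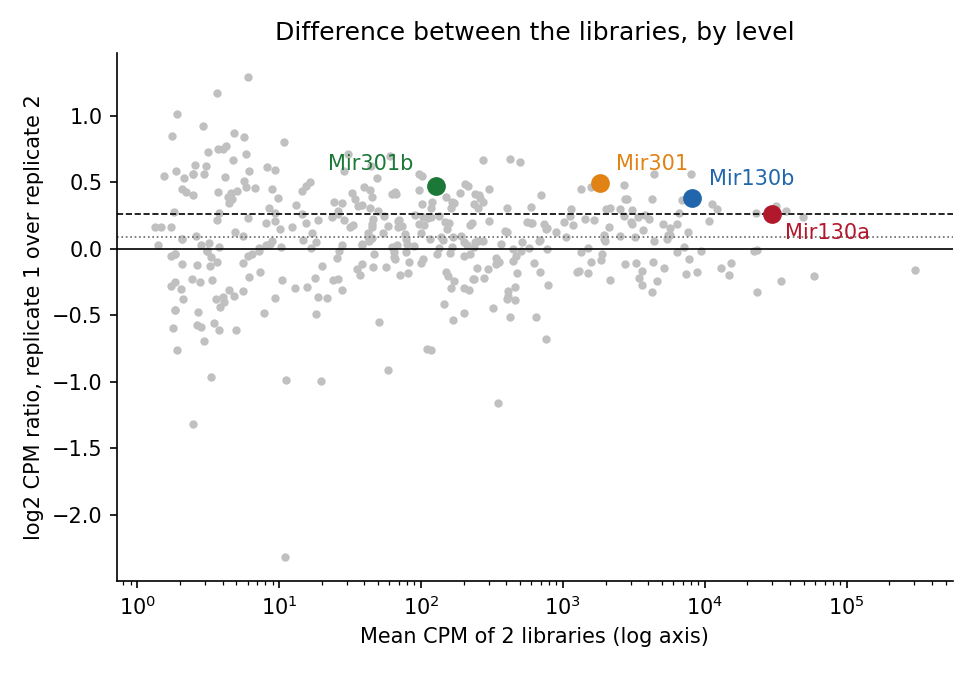
The log2 CPM ratio, replicate 1 over replicate 2, against the mean CPM on a log axis for the 399 detected genes (grey), with the members in colour. The solid line marks equal levels, the dotted line the median of all genes at 0.09 and the dashed line a ratio of 1.2. Mir130a lies on the dashed line at 0.26, and Mir130b at 0.38, Mir301b at 0.47 and Mir301 at 0.49 lie above it.

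Scaling of the libraries moved these ratios and left their direction. The log2 ratios of all genes fell by 0.11 with median-of-ratios factors, and fell by 0.08 with TMM factors. With median-of-ratios factors the ratio was 1.11 for Mir130a, 1.21 for Mir130b, 1.31 for Mir301 and 1.28 for Mir301b, while the median of the detected genes was -0.02 on the log2 scale. Under each of 4 other scalings 3 of 4 members passed 1.2, all but Mir130a, beside 20.3% to 28.1% of the detected genes.

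**Figure D5:**
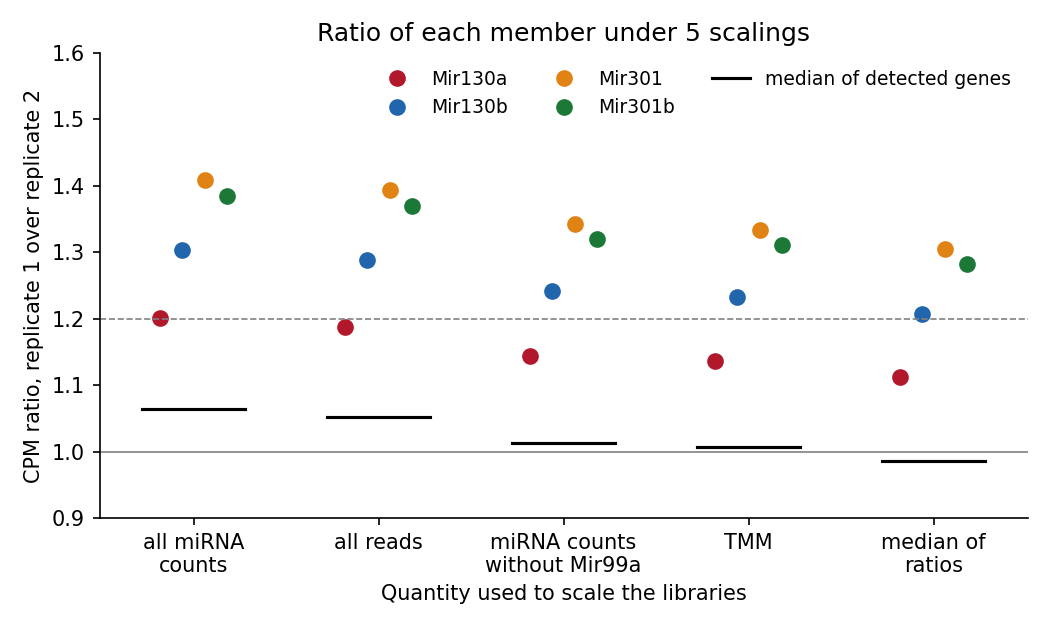
CPM ratio of each member, replicate 1 over replicate 2, when libraries are scaled by all miRNA counts, by all reads, by miRNA counts without Mir99a, by TMM or by median-of-ratios factors. Black bars are the median of the 399 detected genes, and the dashed line is at 1.2. All 4 members stay above the bar and above 1, and Mir130a is below the dashed line in all but the first.

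Markers of other cell types did not share one direction. The endothelial Mir126a had 22103 CPM in replicate 1 and 22365 CPM in replicate 2, a ratio of 0.988. Neural genes that share no hairpin sequence were all higher in replicate 1, at 1.09 for Mir137, 1.12 for Mir7b, 1.16 for Mir153 and 1.22 for Mir92b. So were 62.2% of all detected genes, whose median ratio was 1.06. Those that share sequence went both ways, with 1.14 for Mir9-3 but 0.626 for Mir128-1 and 0.700 for Mir128-2. Their values may lack part of their reads. The 11 neural genes found, of 12 listed, summed to 17127 CPM in replicate 1 and 15842 in replicate 2, a ratio of 1.08. The 5 smooth muscle and stromal genes, 4 of them detected, summed to 3621 and 4042 CPM, a ratio of 0.896. Mir143 led that sum with a mean of 3612 CPM and a ratio of 0.889. Mir199a-2 was at 0.802, whereas Mir214 was at 1.004 and Mir145a at 1.05. Of 4 listed myeloid and lymphoid genes 3 were found, and summed to 186 and 191 CPM, a ratio of 0.972. Of 3 listed erythroid genes 2 were found, with sums of 400.0 and 537 CPM and a ratio of 0.745. Mir451a led that sum with a ratio of 0.765, and Mir144 had 0.201 on 26 and 145 counts. Mir206 had a ratio of 1.41 and Mir122 one of 1.01. The part of cell makeup in the members' ratios was not tested. The collection day also differed, and its effect cannot be told apart from the other differences between replicates.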

How the data were processed

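The 2 small RNA libraries of embryonic forebrain were analysed as 1 group. The deposited values are whole-number read counts per miRNA gene, made by the authors on mm10 with GENCODE M4, per the README of each sample. Which aligner and counter made them is not given in the sources used here. Of their 3 count columns, the one for the strand of the gene was taken. Unmapped (16.8% ± 0.325), multi-mapping (42.7% ± 0.822), unannotated (2.21% ± 0.189) and ambiguous (0%) reads belong to no gene and did not enter the totals (SD, n = 2).

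From these counts, CPM, shares, ranks and ratios with exact Poisson, Clopper-Pearson or conditional binomial intervals were computed (scipy 1.17.1). The ratio and interval code was tested on simulated data. TMM factors came from edgeR 4.0.16 and folds from RNAfold 2.7.2. Of 1973 gene IDs, 1894 matched GENCODE M21, on the same assembly, by ID. The 5′ and 3′ strands of a hairpin were not separated.

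The members, lists and alternatives were chosen with earlier results of these data known. Named genes were the members, the 2 genes on either side of each in mean CPM, genes with the same or an offset seed, host genes, neighbours within 10 kb and marker lists. Other genes named were chosen after their values were seen. Mature and hairpin sequences were taken from RefSeq (GRCm38.p6).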

Additional observations from a re-analysis of the deposited data

Results flagged for a closer look

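Counts on the strand opposite to the gene were found for 1 of the 4 members. Outside this paragraph they enter only values recomputed with counts on either strand, which are among the 97 below. Mir130a had 3 such counts in replicate 1 and 6 in replicate 2, the second above the limit of 3 that a count of 0 allows, and these were 0.00130% and 0.00279% of its reads on either strand. The other members had 0 in both libraries.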

How the results depend on the processing

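Of 97 values recomputed under another setting, 63 stayed within a set limit and 34 moved further. The limit was 1 SD of the replicates, the counting interval of a ratio between replicates, or 1.5 times a count. For ranks it was 1 SD of the places, or less than 1 place where that SD is smaller. Only the members' ratios between replicates could reverse direction, and none did. Of the 63, 20 are means, shares or mean ratios without 1 library, which with 2 libraries cannot move by 1 SD and so say nothing of stability. With totals that leave out Mir99a the mean CPM was 42563 for Mir130a, 11599 for Mir130b, 2587 for Mir301 and 182 for Mir301b, and the family share was 5.69%. Per 1000000 of all reads the means were 11402, 3110, 694 and 48.8, and the share was 1.53%. Without replicate 1 or 2 the place was 6 to 7 for Mir130a, 20 to 24 for Mir130b and 169 to 183 for Mir301b. Among hairpins with no shared sequence Mir301 was in place 58 and Mir301b in place 138. The CPM ratio, replicate 1 over 2, was 1.14 for Mir130a, 1.24 for Mir130b and 1.34 for Mir301 with totals without Mir99a, 1.14, 1.23 and 1.33 with TMM, and 1.11, 1.21 and 1.31 with median-of-ratios factors. Per all reads it was 1.19 for Mir130a and 1.29 for Mir130b. The genes past 1.2 were 197 of 634 (31.1%) with a minimum of 1 count and 72 of 280 (25.7%) with a minimum of 100 counts, beside 118 of 399 (29.6%) with 10, and 24 of 399 passed 1.5. Division by hairpin length, added after the data were seen, gave 465570, 99119, 21095 and 1316 CPM per kb for Mir130a, Mir130b, Mir301 and Mir301b, and 75.7 for Mir130b over Mir301b. No paired analysis was possible because there is only 1 group. Depth limits Mir301b most, with 1050 and 851 counts.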
